A study of Mus musculus with 2 samples.

Results

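The Notch pathway was followed here through 10 of the 32285 genes measured in single cells of newborn mouse back skin. The 10 were chosen by name, with no threshold on their values: the receptors Notch1, Notch2 and Notch3, the ligands Jag1, Jag2 and Dll1, the glycosyltransferase Lfng, and the target genes Hes1, Hey1 and Heyl. Their unique molecular identifiers (UMIs, each marking 1 captured transcript) were counted in barcodes with at least 1000 UMIs, at least 500 genes and under 15% mitochondrial UMIs. The series holds 2 libraries of dorsal skin at postnatal day 3, and animals of both received doxycycline (labelled Dox). The control library comes from wildtype skin and the other from skin labelled miR-200b induced. The labels give neither the transgene, nor the promoter that drives it, nor how many animals were pooled. Epidermal cells (freed with dispase and trypsin) and dermal cells with their follicles (collagenase and trypsin) were mixed 30:70 before capture with 10x Genomics 3' chemistry, so the share of a cell class in a library was set in part by that mixing.

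Notch receptors are membrane proteins that are activated by Jagged or Delta ligands on a neighbouring cell. Binding leads to cleavage by an ADAM protease and then by gamma-secretase, and the freed intracellular part joins RBPJ in the nucleus and switches on targets of the Hes and Hey families. Fringe enzymes such as Lfng add sugars to the receptor and alter which ligand it answers to. In epidermis the pathway is known for promoting the step from basal to spinous cells, in hair follicles for the differentiation of the inner layers, and in blood vessels for arterial identity and for the coating of vessels by mural cells.

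The members lie on 7 autosomes of GRCm38, the assembly that mm10 names. The receptor genes are Notch1 (ENSMUSG00000026923, chr2:26457903-26516663, minus strand), Notch2 (ENSMUSG00000027878, chr3:98013527-98150361, plus strand) and Notch3 (ENSMUSG00000038146, chr17:32120820-32166852, minus strand). The ligand genes are Jag1 (ENSMUSG00000027276, chr2:137081456-137116644, minus strand), Jag2 (ENSMUSG00000002799, chr12:112907819-112929776, minus strand) and Dll1 (ENSMUSG00000014773, chr17:15367354-15376872, minus strand). Lfng (ENSMUSG00000029570) lies at chr5:140607320-140615545 on the plus strand. The target genes are Hes1 (ENSMUSG00000022528, chr16:30064384-30067796, plus strand), Hey1 (ENSMUSG00000040289, chr3:8663359-8667256, minus strand) and Heyl (ENSMUSG00000032744, chr4:123233556-123249875, plus strand).

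The induced microRNA belongs to the miR-200 family, whose members fall into a pair of groups by their seed, bases 2 to 8 of the mature strand, which pairs with target transcripts. The mature sequences are shown because the seed defines the word to look for in the members' transcripts; they are from RefSeq (GRCm38.p6; 5 of 5 matched by name), 5' to 3', with the seed in capitals.
mmu-miR-200b-3p: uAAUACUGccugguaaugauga
mmu-miR-200c-3p: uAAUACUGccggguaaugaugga
mmu-miR-429-3p: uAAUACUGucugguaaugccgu
mmu-miR-200a-3p: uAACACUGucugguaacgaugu
mmu-miR-141-3p: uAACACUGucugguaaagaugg
The first group, which includes miR-200b (mature strand at chr4:156055685-156055706, minus strand), shares the seed AAUACUG. The other group has AACACUG.

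The word that pairs with the miR-200b seed, CAGTATT, was looked for on the transcript strand in the longest annotated 3' untranslated region (UTR) of each gene. It was found in 2 of the 10 members (20%), Jag2 and Lfng, once in each, against 13.3% of 20856 mouse 3' UTRs. These stretches are shown because they are the only members' sites for the induced microRNA under this search; the word is in capitals.
Jag2, exon 26, chr12:112907981-112908009, minus strand: cgggacggcggCAGTATTgaagcttgtga
Lfng, exon 8, chr5:140615110-140615138, plus strand: acatattgtgaCAGTATTtttttactgtg
The word of the other seed group, CAGTGTT, was found in Notch1, Notch2 and Heyl.
Notch1, exon 34, chr2:26458835-26458863, minus strand: tctgcaggctcCAGTGTTctgtagtagtg
Notch2, exon 34, chr3:98150018-98150046, plus strand: ccaaaggtgttCAGTGTTcacgtgtgatt
Heyl, exon 5, chr4:123248753-123248781, plus strand: ccaattttgctCAGTGTTtatgctacgct
A match is a description of the sequence and not evidence of binding. The values of Jag2 and Lfng in the 2 libraries are given with the comparison between them.

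Of 9072 control and 9114 induced barcodes, 4816 and 4890 remained after the filter and removal of likely doublets, with a median of 14584.5 and 17850.5 UMIs per cell. The libraries shared 74 barcodes, 8 of them among the cells kept. The libraries stood apart in the epithelium: 26 of 36 epithelial clusters drew at least 95% of their cells from 1 library, against 0 of 9 other clusters. The basal, spinous and outer root sheath-like classes are thus mostly made of different clusters in each library. The other classes of both libraries lay in the same clusters, but not always in like numbers. Sebaceous-like cells were 212 control and 3 induced and granular-like cells 9 and 132, and they count among all epithelial cells. Classes were rebuilt from marker genes and are called "-like". Of the epithelial clusters, 14 stayed unnamed (1277 control and 1733 induced cells). For 9, no list had 3 raised markers. In 4, follicle markers led at least as often as epidermal ones, and 1 had low depth. The transcript Gm13648, which spans the miR-200b locus (chr4:156052715-156059802), was at 1.6 CPM (counts per 1000000 UMIs) in control and 718.0 CPM in induced basal-like cells, and at 13.7 CPM in induced fibroblast-like cells; it is a host RNA, and the mature microRNA was not measured. Keratin transcripts were found in every dermal class (Krt14, 110 and 246 CPM in fibroblast-like cells), so a low level of a gene in a class was not read as its expression there.

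With 1 library per group there is no replicate, so no test between libraries was possible. Classes were compared within each library and the 2 libraries set side by side, with no test, since they belong to different groups; no p-value is given. Each level is the summed UMIs of a class in CPM, with an exact Poisson 95% interval, and each ratio has an exact binomial 95% interval; both cover counting error only. A gene was called at least 1.5-fold different when its CPM, with 5 CPM added to both sides, differed by that much, among genes with at least 100 UMIs in the 2 sides together. Because the counts come from the 3' end of transcripts, levels are compared within a gene and not between genes.

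**Figure D1:**
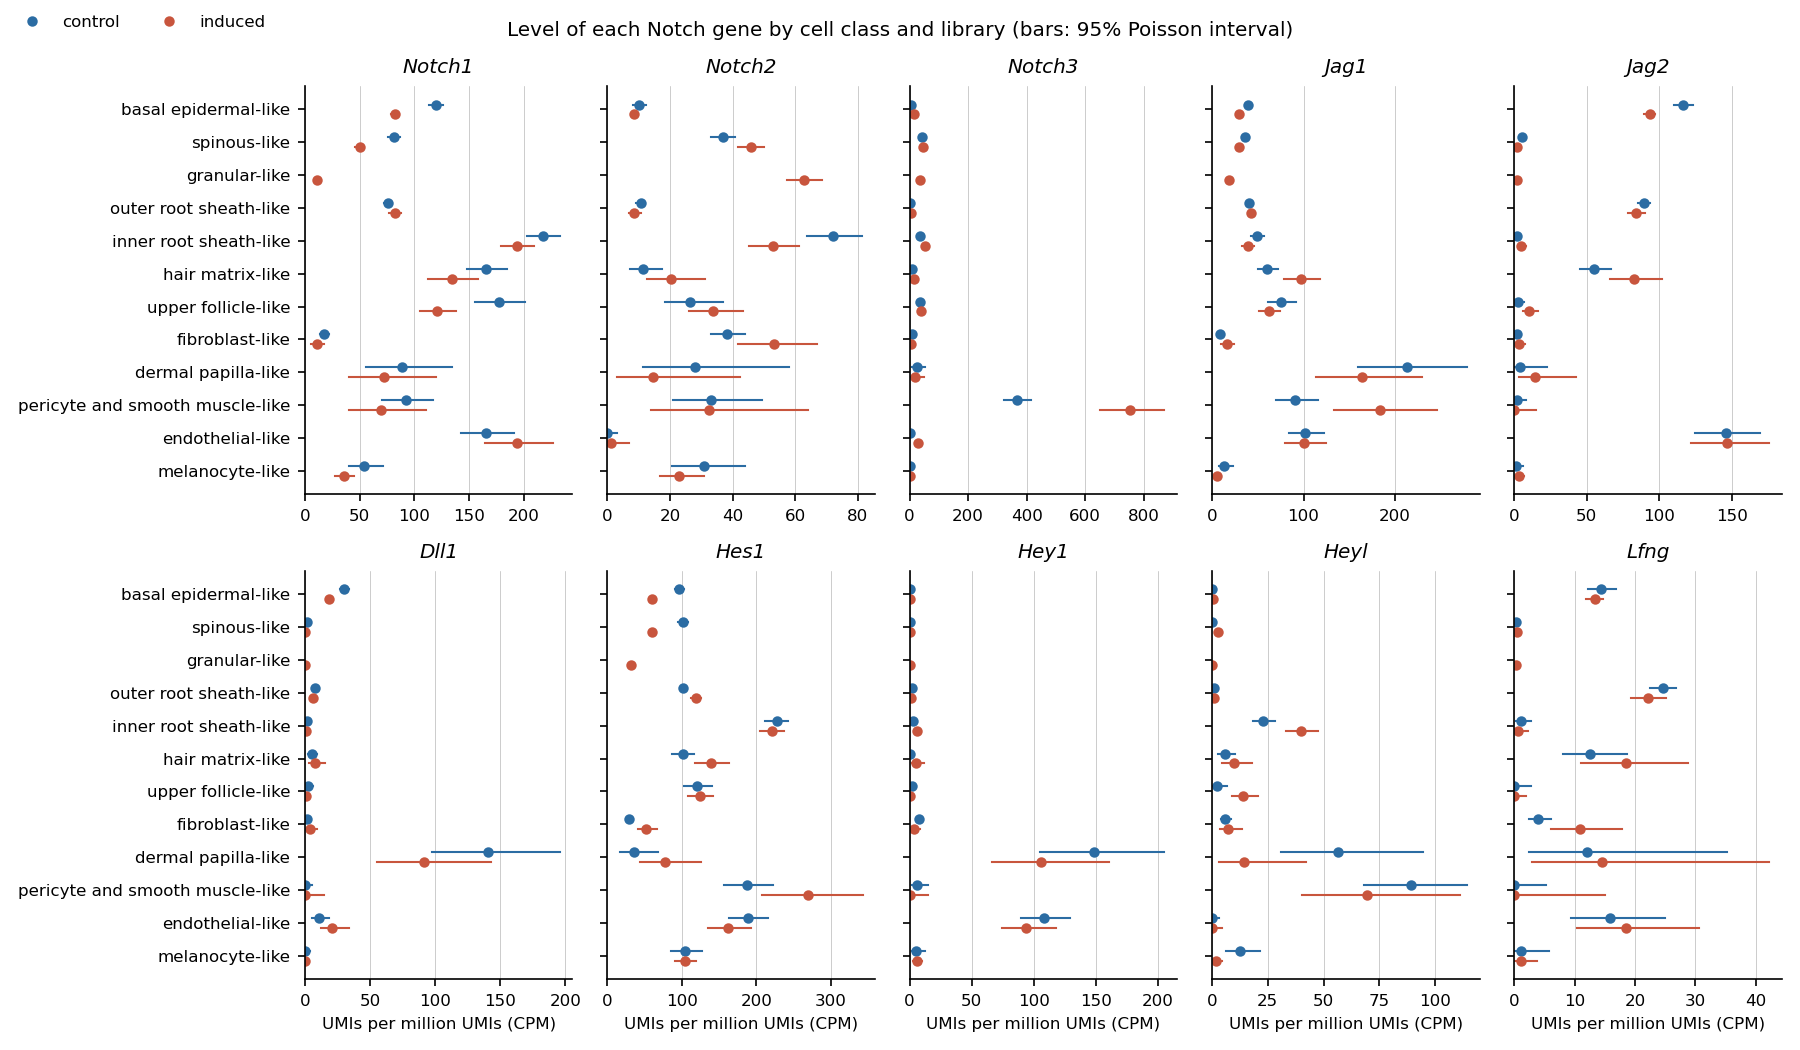
CPM of each of the 10 genes (1 panel per gene, horizontal axis from 0) in the cell classes (vertical axis) with at least 20 cells, in the control and the induced library; bars are exact Poisson 95% intervals. Notch3 stands out in pericyte and smooth muscle-like cells (366 and 754 CPM), Hey1 in endothelial-like and dermal papilla-like cells, and Jag2 in endothelial-like and basal epidermal-like cells.

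Basal and suprabasal epidermis differed in the level of most members. In both libraries suprabasal-like cells had more Notch2 and Notch3 and less Notch1, Jag2, Dll1 and Lfng than basal-like cells. Jag1 and Hes1 did not reach 1.5-fold in either library. The classes held 546 control and 1048 induced basal-like cells, and 284 control and 372 induced suprabasal-like cells; of the latter, 275 and 240 were spinous-like and 9 and 132 granular-like. In each library 6 of the 8 members with enough UMIs differed at least 1.5-fold, against 35.3% (control) and 50.9% (induced) of all genes tested. By direction, 2 members were higher, where 10.7% and 11.9% of all genes were, and 4 were lower, where 24.5% and 38.9% of all genes were.

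Among the receptors, Notch1 was at 119.5 CPM in basal-like and 76.7 CPM in suprabasal-like cells of control skin, and at 82.4 and 34.1 CPM in those of induced skin. Its log2 ratio of suprabasal over basal was -0.64 (95% interval -0.77 to -0.51) and -1.27 (-1.40 to -1.15). The control difference is the weakest of the 6: it reached 1.5-fold in 5 of 11 alternative analyses, and not when only spinous-like cells were used (81.1 CPM), where 5 of 8 members did so in the control (33.1% of all genes) and 6 of 8 in the induced library (42.3%). Notch2 went the other way, from 10.2 to 38.8 CPM in the control library (log2 ratio 1.93, 1.63 to 2.25) and from 8.69 to 52.8 CPM in the induced library (2.60, 2.40 to 2.81). Notch3 was at 5.12 CPM in control basal-like cells and 39.2 CPM in suprabasal-like cells, 7.66-fold higher (log2 ratio 2.94, 2.53 to 3.37). In the induced library Notch3 stood at 13.2 CPM in basal-like cells and 41.6 CPM in suprabasal-like cells (1.65, 1.47 to 1.84). The smaller Notch3 ratio there came with a higher basal level, since the suprabasal levels of the 2 libraries were within each other's counting error (39.2 and 41.6 CPM, log2 ratio 0.08).

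Of the ligands, Jag2 and Dll1 were nearly confined to the basal side. Jag2 was at 116.4 CPM in control basal-like cells and 4.88 CPM in suprabasal-like cells, 23.9-fold lower (log2 ratio -4.58, -5.01 to -4.17). In the induced library it was at 93.4 and 1.43 CPM (-6.03, -6.63 to -5.48). Dll1 was at 30.2 and 1.44 CPM in the control library (-4.39, -5.25 to -3.65), and at 18.5 and 0.106 CPM in the induced library, where it rests on 505 basal and 2 suprabasal UMIs. Jag1 lacked this pattern, at 39.2 and 34.4 CPM in control cells and at 29.1 and 25.1 CPM in induced ones. Lfng followed Jag2 and Dll1, with 157 UMIs in control basal-like and 2 in suprabasal-like cells (14.4 and 0.191 CPM) and 362 and 7 UMIs in the induced library (13.3 and 0.371 CPM).

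Hes1, a transcriptional repressor and well known target, was at 96.5 CPM in control basal-like and 97.3 CPM in suprabasal-like cells (log2 ratio 0.01, -0.11 to 0.14), and at 59.5 and 48.7 CPM in the induced library (-0.29, -0.41 to -0.17). Hey1 was under 1 CPM in basal-like cells of either library (0.366 and 0.293 CPM), and Heyl was at 0.0915 and 0.403 CPM there. Shares of cells gave the same picture for the ligand. After each cell was thinned to 2000 UMIs, Jag2 was found in 21.3% of control basal-like cells (Clopper-Pearson 95% interval 17.9 to 25.0%) and 15.8% of induced ones (13.7 to 18.2%). In suprabasal-like cells the shares were 0.707% and 0.809% (8.45% and 5.91% without thinning, at median depths of 29010.5 and 49860.0 UMIs), and in fibroblast-like cells, which are not known to make Jag2, 0.386% and 0.488%. Without thinning the basal shares were 82.4% and 84.1%, at median depths of 18942.0 and 25729.0 UMIs per cell, and the fibroblast shares 1.72% and 1.73% at 9511.0 and 5543.0 UMIs. In the control library the Jag2 level of spinous-like cells (5.17 CPM, 3.85 to 6.80) was above that of fibroblast-like cells (1.75 CPM, 0.80 to 3.32); in the induced library it was 1.44 against 2.88 CPM, with overlapping intervals.

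The keratins of the classes differed between libraries. Control spinous-like cells kept more basal keratin than induced ones (Krt14, 13443 and 2330 CPM; Krt5, 4634 and 617 CPM), while Krt1 was at 25186 and 24377 CPM, and Lor, a late gene, at 525 and 75.8 CPM; basal-like cells differed in Krt15 (8483 and 231 CPM). Cells outside follicle-like and sebaceous-like clusters, unnamed ones included, were therefore also placed by the share of Krt1 and Krt10 UMIs among those of Krt1, Krt10, Krt5 and Krt14, with at least 20 keratin UMIs. The bins were under 10% (1683 control and 2239 induced cells), 10 to 50% (164 and 232), 50 to 90% (85 and 209) and over 90% (136 and 397).

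Along this keratin axis the members did not all turn at the same step. Notch3 was already high in the bin of 10 to 50%: from 5.15 CPM in the lowest bin it went to 32.4, 37.4 and 41.2 CPM in control cells, and from 13.9 to 41.1, 46.6 and 41.8 CPM in induced cells. Notch2 climbed over the whole axis, with 13.3, 25.5, 31.1 and 50.6 CPM in the control and 12.5, 27.0, 28.8 and 55.4 CPM in the induced library. Notch1 did not drop until later, at 109.2, 117.6, 69.2 and 40.0 CPM in the control and 86.4, 94.3, 64.5 and 31.5 CPM in the induced library. So the bin in which keratin began to switch had high Notch1 and high Notch3 together, as a sum over its cells.

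Jag2, Dll1 and Lfng were already low in the bin of 10 to 50%. Jag2 was at 99.1, 12.4, 10.6 and 0.75 CPM over the 4 bins of control cells and at 81.2, 22.2, 3.46 and 1.61 CPM in those of induced cells. Dll1 was at 20.9, 6.21, 1.10 and 0 CPM, and at 13.1, 3.14, 0.53 and 0.11 CPM. Lfng was at 14.3, 3.10, 0.37 and 0 CPM, and at 16.0, 4.94, 0.80 and 0.38 CPM. Jag1 kept to 26.7 to 42.1 CPM in the control and 24.3 to 30.1 CPM in the induced library. Hes1 was highest in the control library's bin of 10 to 50% (143.2, 163.8, 100.3 and 69.1 CPM) and flatter in the induced library (69.1, 79.5, 76.7 and 48.4 CPM). Nrarp, a target that feeds back on the receptor, is no member and was chosen after its values were seen; it was at 56.0, 147.5, 152.3 and 162.7 CPM, and at 34.8, 140.8, 198.0 and 196.6 CPM, so it stayed high where Hes1 did not.

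**Figure D2:**
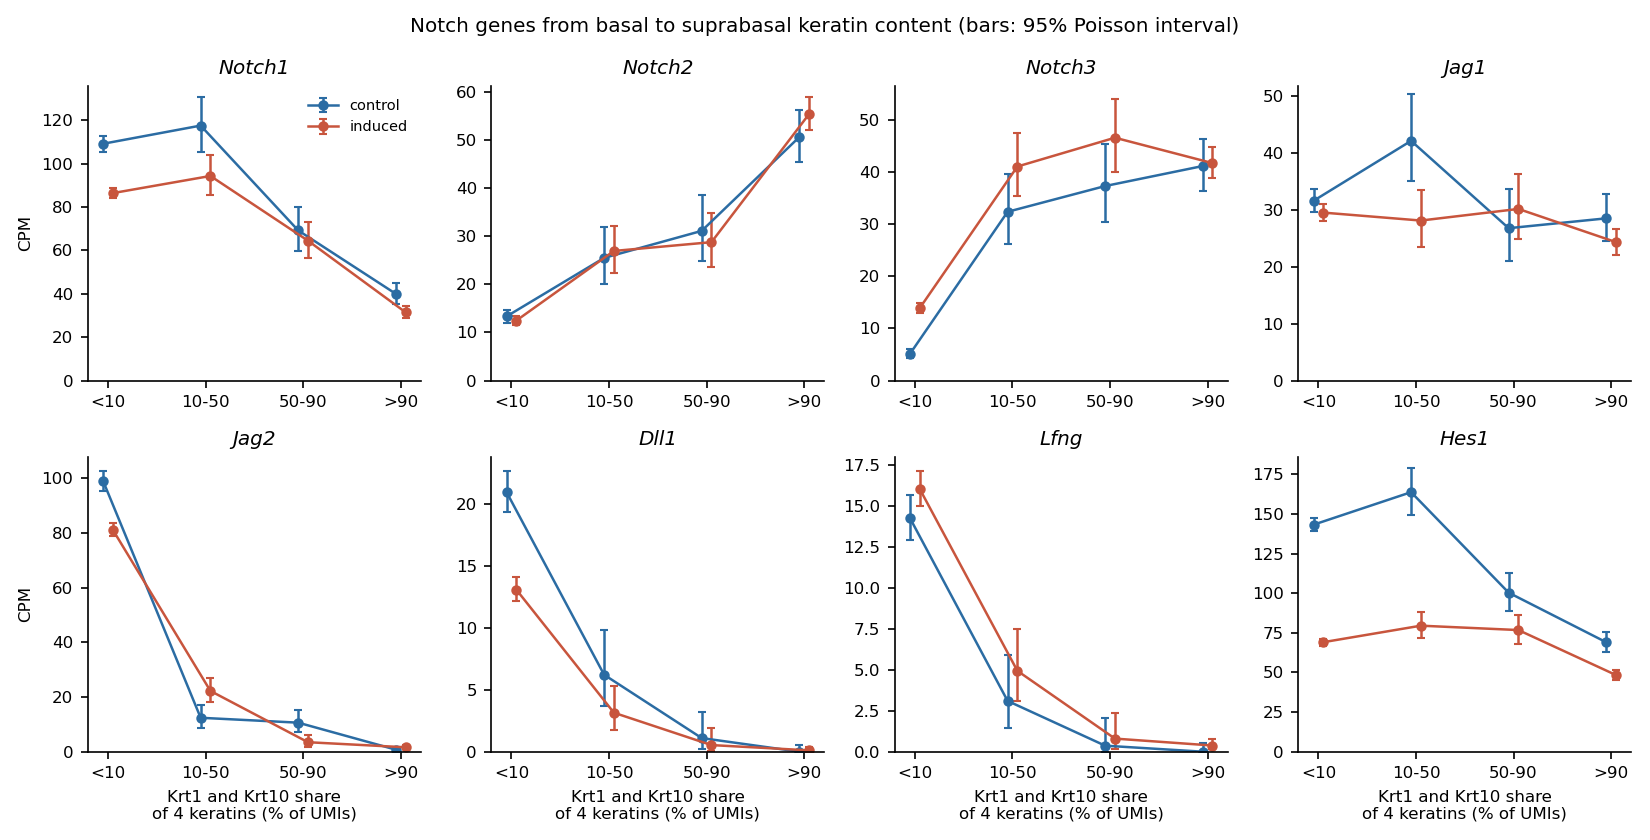
CPM of 8 genes (vertical axis, from 0) in 4 bins of the Krt1 and Krt10 share (horizontal axis, percent), for the control and the induced library, in epithelial cells outside follicle-like and sebaceous-like clusters; bars are exact Poisson 95% intervals. Jag2, Dll1 and Lfng are lower in the bin of 10 to 50% than in the lowest bin in both libraries, and Notch3 is higher there.

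Hair follicle-like cells (1636 control and 944 induced) were set against basal-like cells of the same library, which also serve the comparison above. Jag2 and Dll1 were lower in the follicle in both libraries and Notch2 and Heyl higher. In the control library 4 of 9 tested members differed at least 1.5-fold (24.5% of all genes), and in the induced library 6 of 9 (23.3% of all genes). Notch2 was at 19.7 CPM in control follicle-like cells against 10.2 CPM in basal-like cells, and at 21.2 against 8.69 CPM in the induced library. Dll1 was at 6.34 against 30.2 CPM, and at 4.89 against 18.5 CPM. Jag2 was at 71.3 against 116.4 CPM, and at 59.6 against 93.4 CPM, the least stable of these calls in the induced library (4 of 9 alternatives). Hes1 and Jag1 reached 1.5-fold in the induced library, where Hes1 was at 141.4 against 59.5 CPM (log2 ratio 1.25) and Jag1 at 47.6 against 29.1 CPM (0.71). Its basal level there was below that of the control library (96.5 CPM).

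Within the follicle the members separated by layer. The inner root sheath-like cells (81 control and 114 induced), the layer that moulds the growing hair, were in 1 cluster shared by both libraries. It was named from 4 raised inner sheath markers, and its leading genes included Krt75 and Pinlyp of the companion layer list. Outer root sheath markers summed to 11363 and 15887 CPM in it (control and induced), above the 6213 and 7032 CPM of outer root sheath-like cells. So its identity is mixed. The outer root sheath-like cells (1388 and 696), the layer continuous with the epidermis, were spread over several clusters. Inner sheath cells had more Notch1, Notch2, Notch3, Hes1 and Heyl and less Jag2 and Lfng in both libraries. In the control library 8 of 9 tested members differed at least 1.5-fold, against 42.5% of all genes; in the induced library 7 of 8 did, against 32.0%.

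The receptors were all higher in the inner sheath. Notch1 was at 217.4 CPM against 76.1 CPM in the control library (log2 ratio 1.51, 1.39 to 1.64) and at 194.0 against 82.4 CPM in the induced library (1.24). This is the opposite of its direction in the epidermis. Notch2 was at 72.2 against 10.7 CPM (2.76), and at 52.8 against 8.67 CPM (2.61). Notch3, near the detection limit in the outer sheath, was at 36.4 against 1.14 CPM (4.998, 4.37 to 5.69), and at 53.7 against 3.25 CPM (4.05). Jag2 was at 1.60 against 89.5 CPM in the control and 4.83 against 84.3 CPM in the induced library. Lfng was at 1.07 against 24.6 CPM, and at 0.603 against 22.1 CPM. Jag1 was not 1.5-fold different (48.9 against 40.4 CPM, and 38.9 against 42.9 CPM).

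Hes1 and Heyl, the targets, were high where the receptors were. Hes1 was at 227.0 against 102.1 CPM in the control (log2 ratio 1.15) and at 220.9 against 118.9 CPM in the induced library (0.89). Heyl, a relative of Hes and Hey, was at 22.7 against 0.806 CPM (4.82), and at 39.8 against 0.985 CPM (5.34). Suprabasal-like against basal-like cells, and inner against outer sheath cells, thus both had more Notch2 and Notch3 and less Jag2 and Lfng. Hes1 and Heyl were higher in the inner sheath in both libraries, and Hes1 did not reach 1.5-fold between the epidermal classes in either. Along the keratin axis Hes1 was lower in the highest bin than in the lowest, at 69.1 against 143.2 CPM in control cells. In induced cells it was at 48.4 against 69.1 CPM. Whether the epidermal and follicular ratios differ was not tested.

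Dermal cells carried the pathway in other combinations. Fibroblast-like cells (523 control and 231 induced) had less Notch1, Jag1 and Jag2 than all epithelial cells of their library, and more Notch2 and Heyl. In the control library 9 of 10 members differed at least 1.5-fold (45.8% of all genes) and in the induced library 6 of 9 (49.0% of all genes), so such differences were common among all genes here. Notch1 was at 17.7 CPM in control fibroblast-like cells against 94.2 CPM in epithelial cells, and at 10.8 against 79.7 CPM in the induced library. Notch2 was at 38.1 against 20.6 CPM, and at 53.3 against 23.4 CPM. Jag1 stood at 8.36 against 34.9 CPM, and at 15.9 against 31.5 CPM. Among clusters with cells of both libraries the control difference in Notch2 and both in Heyl took the other sign.

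Pericyte and smooth muscle-like cells (52 control and 46 induced), the mural cells of vessels, had the highest Notch3. It was at 366 CPM (255 UMIs) in the control and 754 CPM (185 UMIs) in the induced cells (log2 ratio 1.04, 0.76 to 1.32). Thinned to 2000 UMIs, Notch3 was found in 46.2% (32.2 to 60.5%) and 84.4% (70.5 to 93.5%) of these cells. The shares were 1.35% and 0.976% in fibroblast-like cells, and without thinning 94.2% and 93.5% in the mural cells, at median depths of 12421.0 and 5281.5 UMIs. Heyl was also high in them, at 89.0 and 69.3 CPM, and Jag1 was at 90.5 and 183 CPM (log2 ratio 1.02, 0.43 to 1.59). Between libraries 2 of 3 tested members, Notch3 and Jag1, were at least 1.5-fold higher, against 45.1% of all genes in either direction. The summed mural marker list was also higher in the induced library (11805 and 17514 CPM, 10 of 10 markers detected in both), as were 13 immediate-early and heat shock genes (4061 and 15508 CPM). Fibroblast markers summed to 4693 and 2323 CPM (9 and 8 of 10 detected), spinous to 457 and 1443 CPM (9 and 10 of 11), basal to 452 and 791 CPM (9 and 8 of 10) and outer root sheath to 1094 and 599 CPM (7 and 5 of 10). The part of these in the result was not tested.

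Endothelial-like cells (62 control and 67 induced) had Notch1 at 165 and 194 CPM, Jag2 at 146 and 147 CPM, Jag1 at 102 and 100 CPM and Hey1, a target known from vessels, at 108 and 93.9 CPM. Notch2 had 0 UMIs in control and 1.24 CPM in induced cells, and Heyl had 0 UMIs in both. None of 5 tested members differed 1.5-fold between libraries (33.8% of all genes did). Notch3, with 3 and 23 UMIs (2.64 and 28.4 CPM), had too few UMIs for a call; mural markers summed to 166.2 and 174.3 CPM in these cells, with 8 and 9 of 10 detected. Dermal papilla-like cells (40 control and 85 induced), the signalling core at the follicle base, had Jag1 at 213 and 164 CPM, Dll1 at 140.7 and 91.6 CPM and Hey1 at 149 and 106 CPM, from 19 to 53 UMIs each. The induced cells of this class were shallow (median 1763.0 against 5589.0 UMIs), and no member could be compared between libraries.

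The 22 profiles of a named class in a library with at least 50 cells were ranked for each gene; unnamed clusters are outside this ranking. Notch1 was highest in control inner root sheath-like cells (217.4 CPM, 202.7 to 232.9), whose interval overlapped that of the next profile, induced endothelial-like cells (194 CPM). Notch2 was highest in the same inner sheath profile (72.2 CPM), overlapping induced granular-like cells (62.8 CPM). The first place of Notch3 in control mural cells (366.2 CPM) stood clear of the next, induced inner sheath cells (53.7 CPM). Jag1 was highest in induced dermal papilla-like cells (164 CPM, 114 to 229), overlapping control endothelial-like cells (102 CPM).

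For the other members the top places went to vessels and to the follicle with its papilla. Jag2 was highest in endothelial-like cells of both libraries (147.1 and 146.0 CPM); the interval of the induced profile (122 to 176 CPM) overlapped that of control basal-like cells (116.4 CPM, 110 to 123), and that of the control profile did not. Dll1 was highest in induced dermal papilla-like cells (91.6 CPM, 55.2 to 143), clear of control basal-like cells (30.2 CPM). Hey1 was at 93.9 to 108 CPM in endothelial-like and induced dermal papilla-like cells and at most 7.20 CPM in the other profiles. Heyl was highest in control mural cells (89.0 CPM), clear of the inner root sheath. Hes1 was highest in inner root sheath-like cells (227.0 and 220.9 CPM), overlapping control endothelial-like cells (188 CPM). An unnamed cluster of 257 control cells led by heat shock genes stood above them, with Hes1 at 305.4 CPM. Lfng was highest in outer root sheath-like cells (24.6 and 22.1 CPM), overlapping induced endothelial-like cells (18.5 CPM). Unnamed clusters also exceeded the top profile for Jag2 (150.4 CPM, 16 control and 86 induced cells of low depth) and Lfng (32.3 CPM, 249 induced cells).

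The genes whose levels were most like a member's over these 22 profiles are given as a description, since profiles share libraries, depth and cells of related classes. Jag2 and Lfng had a neighbour in common, Arhgap25 (Pearson r of log2(CPM + 5) 0.89 and 0.85), beside Arhgef3 (0.91) and Hoxb4 (0.87) for Jag2 and Susd4 (0.87) and Tjap1 (0.85) for Lfng. Hey1 was nearest to Tmem255a (0.95), Slc7a7 (0.95) and Jam2 (0.94), and these values rest on the few profiles in which Hey1 was above 10 CPM. Notch1 and Hes1 also had a neighbour in common, Dgkz (0.84 and 0.79), beside Ptpn4 (0.83) and Efna1 (0.80) for Notch1 and Myh9 (0.80) and Rbm42 (0.79) for Hes1. Notch2 was nearest to Pmm1 (0.82), Prdx5 (0.74) and Tom1 (0.74), and Notch3 to Slc12a2 (0.79), Abcc1 (0.79) and Sh3gl2 (0.78). Dll1 was nearest to Hoxa3 (0.86), Kdm6a (0.86) and Nfatc3 (0.84), Jag1 to Klf10 (0.80), Ier5l (0.80) and Chst15 (0.77), and Heyl to Ddit4l (0.78), Padi3 (0.75) and Afap1l2 (0.74). Of these, Padi3 was itself on the marker list of the inner root sheath.

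The comparison of the libraries asks whether the pathway differed in miR-200b induced skin. Over all epithelial cells (3955 control and 4100 induced), 2 of 10 members reached 1.5-fold, against 15.6% of all genes tested, so members differed about as often as genes in general. Notch3 was higher in the induced library, at 22.4 against 12.9 CPM (log2 ratio 0.80, 0.69 to 0.91), as 6.08% of all genes were. Hes1 was lower, at 77.9 against 122.5 CPM (-0.65, -0.70 to -0.61), as 9.56% of all genes were. Among clusters with cells of both libraries Hes1 had the opposite sign (0.17 on the log2 scale with 5 CPM added), and with named epithelial clusters only neither gene reached 1.5-fold. The mix of layers also differed between control and induced epithelial cells. Spinous markers summed to 19707 and 26672 CPM, basal markers to 19113 and 14424 CPM and outer root sheath markers to 4474 and 5406 CPM. The part of this mix was not tested. The other 8 members were within 1.5-fold: Notch1 at 94.2 and 79.7 CPM, Notch2 at 20.6 and 23.4 CPM, Jag1 at 34.9 and 31.5 CPM, Jag2 at 66.3 and 56.8 CPM, Dll1 at 10.9 and 8.33 CPM, Lfng at 12.9 and 11.8 CPM, Hey1 at 0.959 and 0.631 CPM and Heyl at 1.67 and 2.84 CPM.

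**Figure D3:**
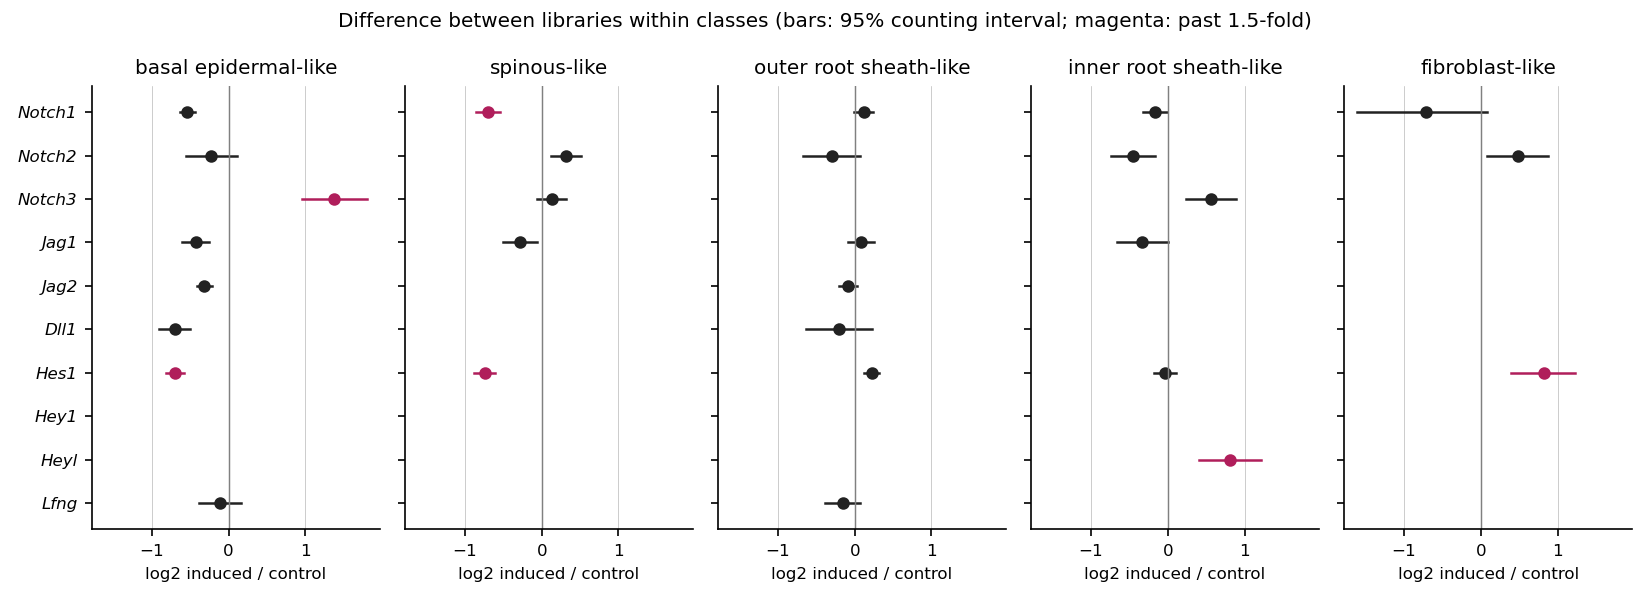
Log2 ratio of CPM in the induced over the control library (horizontal axis) for the members with at least 100 UMIs, in basal, spinous, outer root sheath, inner root sheath and fibroblast-like cells; bars are exact binomial 95% intervals that cover counting error only, and the magenta points differ at least 1.5-fold. Notch3 lies above 0 in basal-like cells, and Hes1 lies below 0 in basal-like and spinous-like cells and above 0 in fibroblast-like cells.

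Basal-like cells showed the same pair of genes, 2 of 8 tested members, where 16.8% of all genes reached 1.5-fold. Notch3 was at 5.12 CPM (56 UMIs) in the control and 13.2 CPM (360 UMIs) in the induced library (log2 ratio 1.37, 0.96 to 1.80), and reached 1.5-fold in 10 of 10 alternatives; 8.8% of all genes were higher. Hes1 was at 96.5 and 59.5 CPM (-0.70, -0.81 to -0.58) and reached it in 9 of 10, where 7.99% of all genes were lower. In the same cells basal markers summed to 48257 and 25496 CPM and spinous markers to 11276 and 9495 CPM. Outer root sheath markers summed to 992 and 1576 CPM and fibroblast markers to 77.6 and 22.0 CPM. The part of these in the result was not tested. Notch1 (-0.54, -0.64 to -0.44), Dll1 (-0.70, -0.91 to -0.50), Jag1 (-0.43) and Jag2 (-0.32, -0.42 to -0.22) were lower without reaching 1.5-fold, though Dll1 was just short of it and reached it in 8 of 10 alternatives. Lfng, which with Jag2 holds the word for miR-200b, had a log2 ratio of -0.11 (-0.39 to 0.17). Neither gene with that word reached 1.5-fold in basal-like, outer root sheath-like or all epithelial cells. In suprabasal-like cells Jag2 was lower in the induced library (levels given above) but had too few UMIs for a call. By keratin share it was higher there at 10 to 50% (12.4 and 22.2 CPM), past 1.5-fold. At 50 to 90% it was lower (10.6 and 3.46 CPM) and over 90% higher (0.75 and 1.61 CPM), with too few UMIs for a call in either bin.

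In suprabasal-like cells Notch1 and Hes1 were lower in the induced library, 2 of 5 tested members against 28.4% of all genes in either direction and 18.4% lower. Notch1 was at 76.7 and 34.1 CPM (log2 ratio -1.17, -1.32 to -1.02), and Hes1 at 97.3 and 48.7 CPM (-0.998, -1.13 to -0.87), where the median gene stood at -0.14. Each reached 1.5-fold in 9 of 11 alternatives; at a higher clustering resolution neither did (-0.20 and -0.36 on the log2 scale with 5 CPM added). Notch2 was at 38.8 and 52.8 CPM (0.45) and Notch3 at 39.2 and 41.6 CPM (0.08). In these cells basal markers summed to 20856 and 1999 CPM (control and induced), outer root sheath markers to 1947 and 5295 CPM and spinous markers to 82350 and 91242 CPM. Their part was not tested. In spinous-like cells alone Notch1 was at 81.1 and 50.01 CPM (-0.70) and Hes1 at 101.5 and 60.6 CPM (-0.74), 2 of 5 members against 22.8% of all genes. Heyl had 0 UMIs in control suprabasal-like cells and 33 UMIs in the induced library (1.75 CPM). With a floor set at 3 UMIs over the control class (0.287 CPM, not an exact Poisson limit), the induced level was at least 6.10-fold higher. This leaves out the counting error of the 33 UMIs.

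At a matched keratin share these suprabasal differences were smaller. In the bin over 90%, Notch1 differed by -0.34 on the log2 scale (-0.56 to -0.13) and Hes1 by -0.51 (-0.68 to -0.35), and 0 of 5 tested members reached 1.5-fold, against 20.4% of all genes. In the bin of 50 to 90%, 0 of 5 did so, against 21.2%. In the bin under 10%, Notch3 was higher (1.44, 1.18 to 1.69) and Hes1 lower (-1.05, -1.12 to -0.99). These were 2 of 8 members, against 15.5% of all genes. The bin takes cells of unnamed clusters as well as basal-like ones. Among the clusters open to it is the control cluster led by heat shock genes (257 control and 0 induced cells, Hes1 at 305.4 CPM). The part of that cluster in the Hes1 difference was not tested. In the bin of 10 to 50%, Hes1 was lower (-1.04, -1.25 to -0.84) and Jag2 higher (0.84), 2 of 6 against 17.5%. The 13 immediate-early and heat shock genes (Fos, Jun, Egr1, Atf3, Hspa1a and others) differed along with Hes1: they summed to 12954 and 6305 CPM (control and induced) in the bin under 10%, 10163 and 5850 CPM at 10 to 50%, 8867 and 6830 CPM at 50 to 90%, and 9383 and 8885 CPM over 90%.

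Follicle-like cells had higher Notch3 and Heyl in the induced library, 2 of 9 members against 20.7% of all genes in either direction and 8.42% higher. Notch3 was at 7.87 and 18.4 CPM (log2 ratio 1.23, 0.97 to 1.48) and Heyl at 4.13 and 10.9 CPM (1.40, 1.05 to 1.75). Inner root sheath-like cells, where both genes were high, made up 81 of 1636 follicle-like cells in the control and 114 of 944 in the induced library. Over all follicle-like cells outer root sheath markers summed to 7470 and 11008 CPM and basal markers to 12109 and 9925 CPM, and their part was not tested. Within the inner sheath Heyl was at 22.7 and 39.8 CPM (0.81, 0.41 to 1.22), the only 1 of 6 members to reach 1.5-fold (19.2% of all genes), and Notch3 was at 36.4 and 53.7 CPM (0.56). In the same cells basal markers summed to 15416 and 9885 CPM and outer root sheath markers to 11363 and 15887 CPM (10 of 10 detected for each), and the median depth was 36342.0 and 15514.5 UMIs; their part was not tested. Within the outer sheath 0 of 7 members reached it (23.7% of all genes), but Notch3 and Heyl had too few UMIs there to be among the 7. Notch3 was at 1.14 and 3.25 CPM in it (24 and 33 UMIs; log2 ratio 1.52, 0.71 to 2.34) and Heyl at 0.806 and 0.985 CPM. In hair matrix-like cells 1 of 4, Jag1, was higher (60.4 and 97.2 CPM; 28.9% of all genes); fibroblast markers summed to 579 and 1007 CPM there (9 and 7 of 10 detected) and outer root sheath markers to 2546 and 919 CPM (10 of 10), and their part was not tested. In upper follicle-like cells 0 of 4 reached it (24.5%), Notch3 being at 36.3 and 39.2 CPM; Heyl, with too few UMIs to be tested, was at 2.27 and 14.0 CPM (3 and 26 UMIs). With doublets kept, neither Notch3 nor Heyl reached 1.5-fold over the follicle.

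Fibroblast-like cells had higher Hes1 in the induced library, at 52.6 against 29.8 CPM (73 and 153 UMIs; log2 ratio 0.82, 0.40 to 1.23), 1 of 3 members against 19.5% of all genes in either direction and 9.28% higher. It reached 1.5-fold in 8 of 10 alternatives, and not with doublets kept (0.52 on the log2 scale with 5 CPM added) or at a higher clustering resolution (0.27). Mural markers summed to 309 CPM in control and 1343 CPM in induced fibroblast-like cells (8 of 10 detected in both), Kcnj8 and Abcc9 being at 0 in the control and Rgs5 and Myh11 at 0 in the induced library. Spinous markers summed to 603 and 1251 CPM (10 of 11), basal markers to 331 and 581 CPM (10 of 10) and the fibroblast list itself to 72859 and 40161 CPM (10 of 10). The part of these in the result was not tested.

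In the 4 main classes Hes1 differed in the same direction as the 13 immediate-early and heat shock genes, which are known to be switched on when tissue is dissociated. These genes summed to 12910 CPM in control and 6635 CPM in induced basal-like cells, where Hes1 was lower in the induced library. They stood at 10182 and 8510 CPM in suprabasal-like cells, with Hes1 lower as well. In follicle-like cells they were at 9617 and 11360 CPM with Hes1 at 119.5 and 141.4 CPM, a difference short of 1.5-fold. In fibroblast-like cells they were at 3159 and 10269 CPM with Hes1 higher. In endothelial-like cells the directions parted, with 7235 and 12161 CPM for these genes and 188 and 162 CPM for Hes1. Inner root sheath-like cells had these genes at 7227 and 7880 CPM, while Hes1 was not higher in the induced cells (levels given above).

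Leaving out the 7 epithelial clusters led by immediate-early or heat shock genes left Hes1 at 114.5 and 73.5 CPM over epithelial cells (log2 ratio -0.64), with the 13 genes still at 8871 and 6778 CPM. In follicle-like cells the 13 genes then ran the other way (8795 and 7637 CPM) while Hes1 stayed at 118.6 and 140.4 CPM (0.24). Notch3 over epithelial cells was at 15.2 and 24.3 CPM without them, short of 1.5-fold on the scale with 5 CPM added. The part of the immediate-early genes in the Hes1 difference was not tested.

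**Figure D4:**
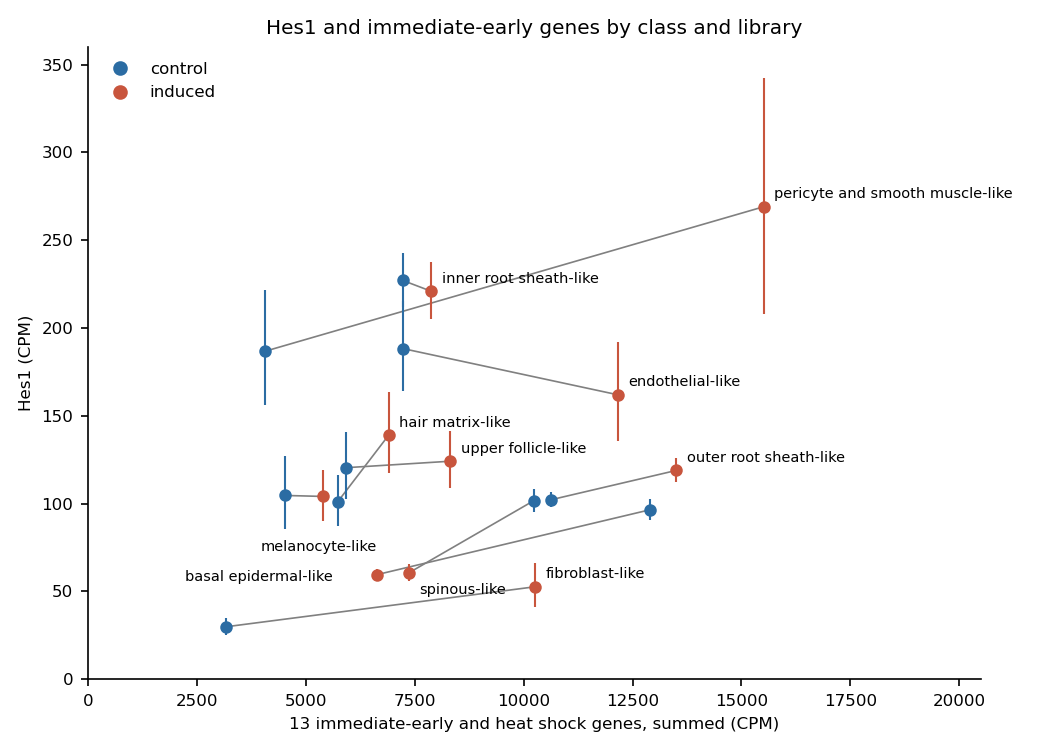
Hes1 CPM (vertical axis) against the summed CPM of 13 immediate-early and heat shock genes (horizontal axis) in 10 cell classes; each line joins the control to the induced library of 1 class, and bars are exact Poisson 95% intervals of Hes1. In basal-like and spinous-like cells both measures are lower in the induced library, and in fibroblast-like cells both are higher.

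Another 54 genes of the pathway were read as counts by role. Between libraries over all epithelial cells 44 were tested, and 1 was higher and 1 lower in the induced library, where 15.6% of all genes differed; the median log2 difference was -0.06, beside -0.05 for all genes. The higher one was Psen2, a catalytic subunit of gamma-secretase and 1 of 10 tested genes of receptor cleavage, at 3.82 and 8.94 CPM (log2 ratio 1.23, 1.03 to 1.42). The lower one was Dlk2, a noncanonical ligand, at 25.9 and 7.49 CPM (-1.79, -1.91 to -1.66). None of 7 genes of the nuclear complex, 6 corepressors, 6 genes of receptor turnover, 5 of ligand endocytosis, 3 further targets and 2 glycosyltransferases reached 1.5-fold.

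Within classes the list was compared in the same way. In basal-like cells 1 of 40 was higher and 3 lower (16.8% of all genes differed), Dlk2 among them (59.7 and 15.6 CPM). In suprabasal-like cells 3 of 33 were higher and 3 lower (28.4% of all genes), and in follicle-like cells (20.7% of all genes) 2 of 40 were higher, Psen2 among them (4.52 and 12.9 CPM), and 1 lower, Dlk2 (18.5 and 5.50 CPM). In fibroblast-like cells 4 of 28 were higher and 1 lower (19.5% of all genes). Nrarp, chosen after its values were seen, went in opposite directions: it was lower in induced basal-like cells (42.4 and 20.1 CPM) and higher in induced suprabasal-like cells (127 and 196 CPM).

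Between the epidermal layers the list differed about as often as genes in general. In suprabasal-like against basal-like cells 4 of 37 were higher and 9 lower in control skin, and 5 of 41 higher and 15 lower in induced skin, where 35.3% and 50.9% of all genes differed, with a list median of -0.13 and -0.37 beside -0.20 and -0.41 for all genes. Dlk2 was among the lower ones in both, with 653 and 6 UMIs in control basal-like and suprabasal-like cells (59.7 and 0.574 CPM), as Jag2 and Dll1 were. Of the 3 genes in the group of known epidermal targets and antagonists, 1 was higher and 1 lower in each library. Follicle-like against basal-like cells gave 11 of 40 higher and 2 lower in the control and 8 higher and 3 lower in the induced library (24.5% and 23.3% of all genes differed). Fibroblast-like against epithelial cells gave 12 of 42 higher and 11 lower, and 14 higher and 12 lower (45.8% and 49.0% of all genes). The canonical ligands Dll3 and Dll4 had too few UMIs to be called in any of these comparisons.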

How the data were processed

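UMI counts per gene and barcode were deposited by the authors, made with Cell Ranger 6.0.0 and the mm10 build per the submitters' processing notes; the values are raw counts with no normalization. The libraries held 100409201 (control) and 119705137 (induced) UMIs. Barcodes with at least 1000 UMIs, at least 500 genes and under 15% mitochondrial UMIs were kept, and the 7% with the highest Scrublet score in each library were removed as doublets, since the automatic threshold marked only 3 and 1. Clustering joined the libraries with no integration step (scanpy 1.11.5, leidenalg 0.10.2; 2000 variable genes, 30 components, 15 neighbours), leaving out the Notch members and list, cell cycle, mitochondrial, ribosomal, sex-linked and haemoglobin genes, and clusters were named from at least 3 raised markers. Counts were summed per class and library and scaled to CPM; intervals were computed with scipy 1.17.1, and the scripts were tested on simulated data. The labels give 1 library per group, so there is no test. The members and the gene and marker lists were chosen with earlier results of these data known. All 10 members are named; of the further pathway list (54 of 55 found), those past 1.5-fold over all epithelial cells are named, and for each member the 3 genes with the highest correlation. Sites were searched in GRCm38 with GENCODE annotation. Alternatives covered cell filter, doublets, clustering, scaling, thresholds and, chosen after seeing the data, subsets of clusters and keratin bins between libraries.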

Additional observations from a re-analysis of the deposited data

Results flagged for a closer look

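The ratios of Notch1 and Hes1 between libraries had opposite signs in different cell classes. The log2 ratio of induced over control for Notch1 was -0.54 in basal epidermal-like cells, -1.17 in suprabasal-like cells and 0.091 in hair follicle-like cells. The follicle value was short of 1.5-fold and kept its sign in 7 of 10 alternatives; within the follicle, Notch1 was at 217 and 194 CPM (control and induced) in the inner root sheath, 177 and 121 CPM in the upper follicle, 166 and 134 CPM in the matrix and 76.1 and 82.4 CPM in the outer root sheath. For Hes1 it was -0.70 in basal-like, -0.998 in suprabasal-like, 0.24 in follicle-like and 0.82 in fibroblast-like cells. With 1 library per group the difference between classes was not tested.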

How the results depend on the processing

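Of 912 member values recomputed under alternative settings, 753 moved by less than their counting error, 155 moved by more, and 4 that had reached 1.5-fold took the opposite sign. Values short of 1.5-fold changed sign 30 times under various settings; Notch1 and Notch2 between libraries in follicle-like cells kept theirs in 7 of 10 alternatives. The 4 reversals of values past 1.5-fold came from using only clusters with cells of both libraries (log2 scale with 5 CPM added): Hes1 between libraries over epithelial cells (0.17), and in fibroblast-like against epithelial cells Notch2 in the control library (-0.015) and Heyl in the control (-0.51) and induced (-1.29) libraries. No basal-like or suprabasal-like cluster qualified there.

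Of 136 counts of members past 1.5-fold, 22 moved by over 1.5 times. Between libraries, the epithelial count of 2 became 1 with scaling to the median gene, with equal weight per cell and without clusters led by immediate-early genes, and 0 with a 2-fold threshold or named clusters only. The basal count of 2 became 1 with equal weight and 0 at 2-fold. The suprabasal count of 2 became 0 at a higher clustering resolution and with the keratin gate, and 1 at 2-fold. The follicle count of 2 became 0 with doublets kept and at 2-fold, and 1 at the higher resolution. The fibroblast count of 1 became 0 at the higher resolution and at 2-fold, 3 with equal weight and with at least 20 UMIs, and 2 with 1 CPM added. Follicle against basal in the control library went from 4 to 1 with equal weight and at 2-fold, and in the induced library from 6 to 3 at 2-fold. Fibroblast against epithelial in the control library went from 9 to 5 among clusters of both libraries. Shares of cells followed depth: 163 of 200 moved when unthinned or thinned to 5000 UMIs. No paired analysis was possible because the groups have 1 library each; comparisons of classes within a library were not tested.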
